A study of Drosophila melanogaster with 4 samples.

Results

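Mhc, the muscle myosin heavy chain gene of Drosophila melanogaster, lies on chromosome arm 2L at 16766738 to 16788762 in FlyBase release 5 of the genome, a span of 22025 bp. Acetylation of lysine 9 of histone H3 (H3K9ac) at this locus was examined with chromatin immunoprecipitation and sequencing (ChIP-seq). The members described here are the regions of significant H3K9ac enrichment called by the study's authors, termed clusters, that overlap 2L at 16760000 to 16795000. They were chosen by position alone. They numbered 6 of the 27589 clusters in the 3 deposited lists, namely 2 of 8495 in the list of ChIP replicate 1, 1 of 6772 in that of ChIP replicate 2 and 3 of 12322 in a list for the replicate set as a whole, termed the replicate-set list. Of the 6, 4 overlapped the gene itself.

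The study comprised 2 H3K9ac ChIP samples and 2 input chromatin samples. All came from embryos of the wild-type strain Oregon-R (Oregon-R-modENCODE) aged 14 to 16 h, and were fixed with formaldehyde. Each input is labelled with the ChIP list it was used for, and input values were not analysed here. Nothing in the labels ties the replicates to separate collections of embryos, and differences between them may therefore be technical. Read depth is unknown. The tissue was the whole embryo, in which muscle is one of many cell types, and strong acetylation in few cells cannot be told apart from weak acetylation in many.

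Myosin heavy chain is the motor protein of the thick filament, and its head pulls on actin as a muscle contracts. In Drosophila, Mhc is the gene for the muscle form of this protein, and the isoforms of the different body wall, gut, heart and flight muscles come from alternative splicing of its transcript. The body wall muscles of the larva form during embryogenesis by fusion of myoblasts, after which genes of the sarcomere are transcribed strongly. H3K9ac is a histone mark found at the promoters and early transcribed parts of active genes. A RefSeq gene table of another release (Release 6) was used for gene names and their order alone, and it places ppk17, a member of the pickpocket family of sodium channel subunits, before Mhc on the arm and Cyt-b5-r, a cytochrome b5-related gene, after it. The strand of Mhc is not given in the sources used here, so positions are stated from the lower-coordinate end of the gene.

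In each list the highest-scoring H3K9ac cluster of Mhc lay near the lower-coordinate end of the gene. The rest of the gene was largely free of called clusters. In replicate 1 this cluster ran from 16766872 to 16769977, a width of 3106 bp, with a score of 0.905. In replicate 2 it ran from 16767608 to 16769719, a width of 2112 bp, with a score of 0.642. In the replicate-set list it ran from 16766518 to 16770240, a width of 3723 bp, with a score of 0.708. Scores are the authors' own values for each cluster, on a scale that the sources used here do not give, and they are ranked below within a list. The mean width over the replicates was 2609 bp ± 703 (SD, n = 2 here and below).

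**Figure D1:**
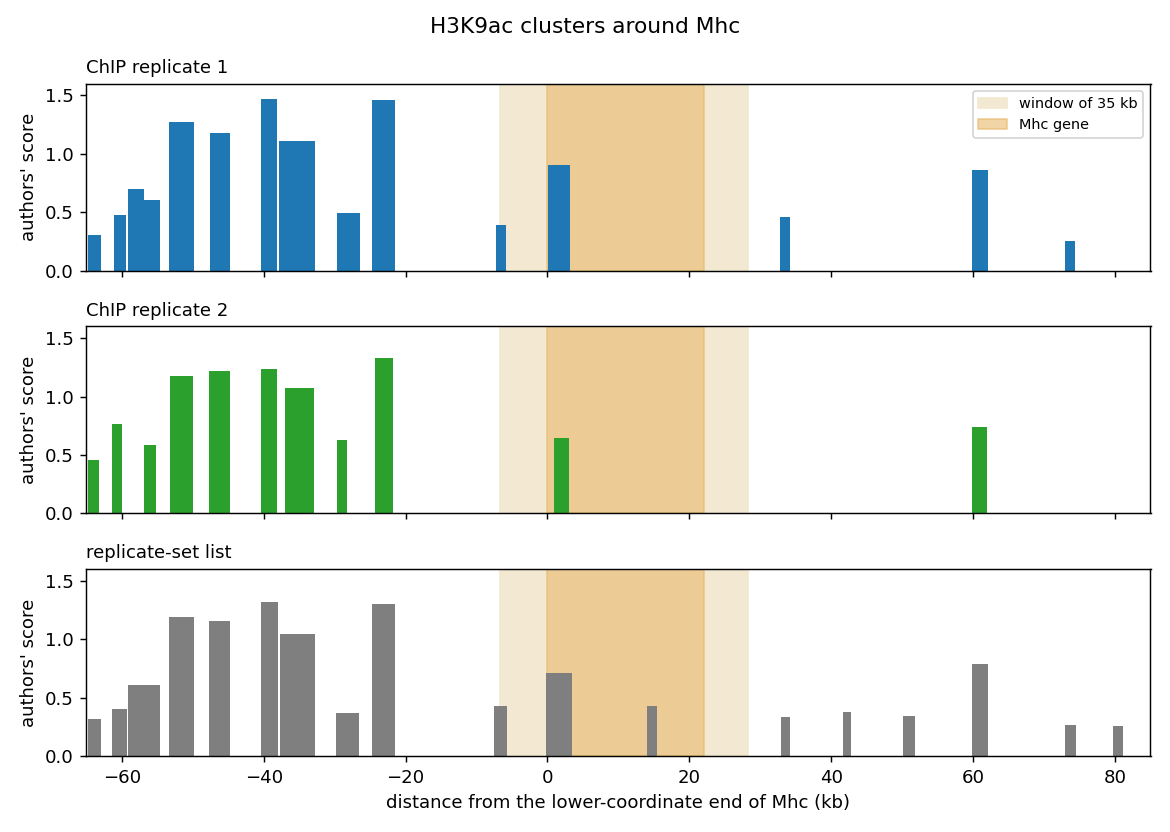
H3K9ac clusters within 65 kb of Mhc in the 3 lists, with the distance from the lower-coordinate end of the gene in kb on the x axis, the authors' score as the height of each bar and the cluster width as the width of the bar. Each list has a cluster in the first few kb of the gene, with scores of 0.905, 0.642 and 0.708, the replicate-set list has another farther into the gene, and several taller clusters stand more than 20 kb before it.

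The outermost base of the gene on the lower-coordinate side was inside the replicate-set cluster, which began 220 bp before it. It was in neither replicate cluster: the replicate 1 cluster began 134 bp into the gene and the replicate 2 cluster 870 bp into it. The other edge lay 3502 bp into the gene for the replicate-set cluster, 3239 bp for replicate 1 and 2981 bp for replicate 2. All 3 thus lay within the first 15.9% of the gene's length, apart from the bases before it. Both replicate clusters lay wholly inside the gene, as did 94.1% of the replicate-set cluster.

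A further cluster, inside the gene at 16780816 to 16782110, was in the replicate-set list alone. It began 14078 bp and ended 15372 bp from the lower-coordinate end, or 63.9% to 69.8% of the way along the gene. It was 1295 bp wide, with a score of 0.429, and overlapped no cluster of either replicate. The narrowest cluster of either replicate on 2L was 1301 bp, a little wider than this one. Series-wide clusters without a partner in either replicate were common: they made up 745 of the 2296 clusters of the rest of 2L, or 32.4%. Among those 745 the median was 1259 bp for width and 0.401 for score. The cluster inside Mhc exceeded 55.0% of them in width and 67.1% in score, so it was a fairly ordinary member of that class.

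The last cluster of the window lay before the gene. It ran from 16759436 to 16760857 in replicate 1, with a score of 0.393, and from 16759262 to 16761064 in the replicate-set list, with a score of 0.430. It ended 5881 bp before the gene in replicate 1 and 5674 bp before it in the replicate-set list, and no replicate 2 cluster overlapped it. At the locus 1 of the 2 replicate 1 clusters overlapped a replicate 2 cluster, where 63.5% did over the rest of 2L. The 1 replicate 2 cluster overlapped one of replicate 1, where 89.5% did over the rest of 2L. Of the 3 replicate-set clusters, 1 overlapped both replicates, 1 replicate 1 alone, 0 replicate 2 alone and 1 neither, where 40.6%, 22.4%, 4.53% and 32.4% of the rest of 2L did so. With 1 to 3 clusters a list, these counts are descriptions that cannot differ detectably from the arm. By score, the cluster at the lower-coordinate end came first in both lists that held more than 1. The other two of the replicate-set list scored 0.430 and 0.429, and no spread of that list is known by which to order them.

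The rank of the Mhc cluster by score differed widely between the replicates. In replicate 1 it was 400th of the 1567 clusters of 2L, above 74.5% of the clusters of the rest of the arm. In replicate 2 it was 894th of 1203, above 25.5% of them. The mean percentile was 50.0 ± 34.6, a spread that leaves the rank of this cluster within the arm poorly determined. In the replicate-set list it was 461st of 2299, above 80.0% of the rest. Over the rest of 2L the median score was 0.637 for replicate 1, 0.763 for replicate 2 and 0.441 for the replicate-set list. The Mhc cluster thus scored above the median in replicate 1 and below it in replicate 2. It was above the median in the replicate-set list, which is for the same ChIP samples and is not a further replicate. Against all clusters of a list, on every chromosome, the score percentile was 70.3 for replicate 1, 21.0 for replicate 2 and 76.2 for the replicate-set list.

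The fall in percentile between the replicates, 49.0 points, was large for the arm. Among 856 other pairs on 2L in which a cluster of each replicate overlapped just the other, the median difference of replicate 1 minus replicate 2 was 6.08 points, with quartiles of -0.369 and 18.3. A larger fall was seen in 42 of these pairs, or 4.91%. The deposited score itself was higher in replicate 1 at Mhc, as it was in 429 of the 856 other pairs, or 50.1%. The scale of the score may differ between the lists, so this comparison across lists is a description alone.

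By width, the cluster exceeded 71.6% of the clusters of the rest of 2L for replicate 1, 49.3% for replicate 2 and 82.5% for the replicate-set list. The mean over the replicates was 60.4% ± 15.8. The median width of the rest of 2L was 2231 bp for replicate 1, 2131 bp for replicate 2 and 2001 bp for the replicate-set list. The replicate 1 score of 0.905 at Mhc was close to the median score of 0.911 of the 445 clusters of the rest of 2L that were at least as wide. In replicate 2, the score of 0.642 at Mhc exceeded those of 2.62% of the 610 clusters at least as wide, whose median score was 1.01. It was near the median of 0.646 of the 592 narrower clusters. In the replicate-set list, the score was 0.708 at Mhc, against a median of 0.713 in the 401 clusters at least as wide. The sets at least as wide also hold much wider clusters, and clusters of similar width were not compared. In replicate 2 the wider set had the higher median score, so 2.62% is not a rank among clusters of similar width.

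**Figure D2:**
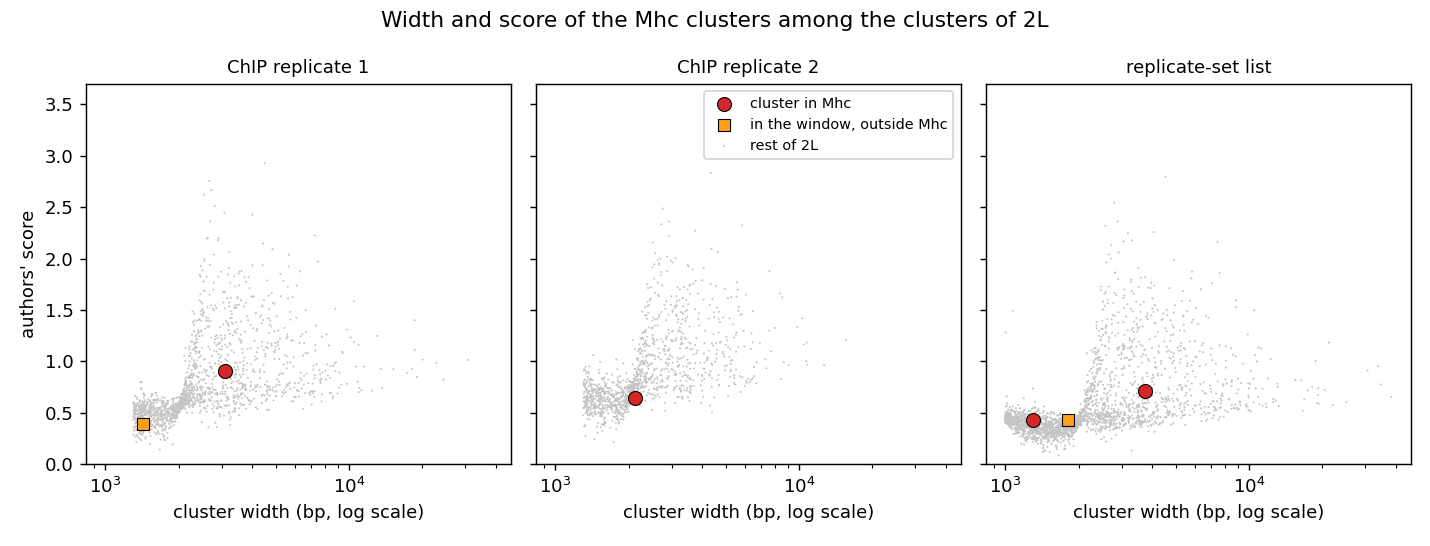
Width (x axis, bp, log scale) and authors' score (y axis) of each cluster of 2L in the 3 lists, with clusters in Mhc as red circles, the other cluster of the window as orange squares and the rest of the arm as grey dots. The main Mhc cluster stands in the middle of the cloud of wide clusters in replicate 1 (3106 bp, 0.905) and in the replicate-set list (3723 bp, 0.708), and at the low edge, where the cloud of narrow clusters ends, in replicate 2 (2112 bp, 0.642).

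The named rule for likeness took the 3 replicate-set clusters on 2L nearest to the Mhc cluster in the plane of score percentile and width percentile. They lay at 10229986 to 10233690, at 18182696 to 18186470 and at 20059146 to 20062846, within 0.351 to 0.566 percentile points of it. Each overlapped 1 cluster of each replicate, as the Mhc cluster did. Over the rest of 2L, 40.6% of replicate-set clusters overlapped both replicates. No share is given here for clusters of this score and width, so the overlap is not read as a likeness to Mhc. In replicate 1 the score was 0.905 at Mhc and 0.687, 0.944 and 0.868 at these positions, and in replicate 2 it was 0.642 at Mhc and 0.616, 0.732 and 0.655 at these positions. All 3 scored above the median of the rest of 2L in replicate 1, 0.637, and below that in replicate 2, 0.763, as the Mhc cluster did. They were picked by score and width in the list for the same replicates, and no share of the arm with this pattern is given. The pattern is thus not read as a likeness to Mhc either. Likeness was measured in 1 list and says nothing of the genes at these positions.

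The replicates placed the edges of the Mhc cluster less closely than is usual on the arm. The lower-coordinate edge of replicate 2 lay 736 bp farther into the gene than that of replicate 1, where the median distance in the 856 other pairs was 116 bp. This offset was larger in size than 88.7% of theirs, and 97 pairs had one as large or larger. The higher-coordinate edge of replicate 2 lay at -258 bp from that of replicate 1, where the median distance was 128 bp, and this offset was larger than 68.2% of theirs. The replicate 1 cluster was thus wider by 994 bp, against a median of 163 bp in the other pairs. It was the wider in 676 of those pairs, or 79.0%.

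**Figure D3:**
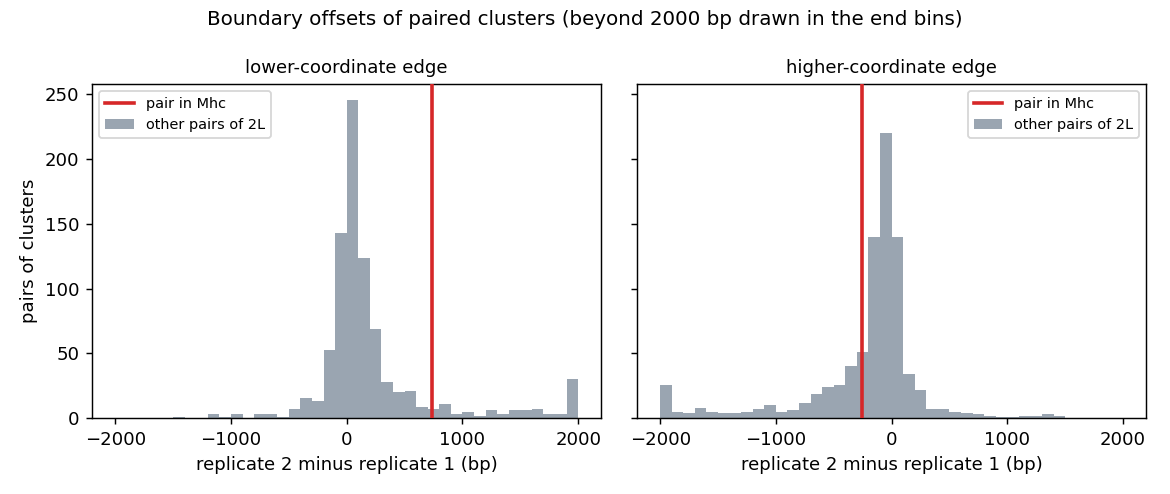
Offsets of the lower-coordinate and higher-coordinate edges, replicate 2 minus replicate 1 in bp, for the pair in Mhc (red line) and for the 856 other pairs of 2L (grey bars, count of pairs per 100 bp). The Mhc pair stands in the right tail for the lower-coordinate edge, at 736 bp, and nearer the peak for the higher-coordinate edge, at -258 bp.

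The clusters were nested. That of replicate 2 lay entirely inside that of replicate 1, and covered 68.0% of it, and that of replicate 1 lay entirely inside that of the replicate-set list. Relative to replicate 1, the replicate-set cluster reached 354 bp farther on the lower-coordinate side and 263 bp farther on the other. Among 763 other sets on 2L with 1 cluster in each of the 3 lists, 204, or 26.7%, were nested in this order. The replicate-set score of Mhc lay between the replicate scores, as it did in 272 of the 763 sets, or 35.6%. This too compares scores across lists whose scales may differ. The bases shared by the pair came to 68.0% of the bases covered by either, where the median of the 856 other pairs was 89.1%, and 21.5% of those pairs had a lower share. Over the whole window, the replicates shared 53.3% of the bases covered by either, against 56.4% over the rest of 2L. Over the gene alone they shared 68.0%, against the same 56.4%. The 2 values are of unlike sets: the gene holds just the matched pair, while the 56.4% also counts clusters without a partner. Against matched pairs, the gene was below the median of 89.1%. Without the clusters that scored below their list median, the share in the window was 0%, since the replicate 2 cluster was among those left out.

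Clusters covered a small part of the gene. Of its 22025 bp, 3106 were covered in replicate 1, or 14.1%, and 2112 in replicate 2, or 9.59%, a mean of 11.8% ± 3.19. The mean was 7.05% without the clusters that scored below their list median, the replicate 2 cluster among them. The replicate-set list covered 4798 bp, or 21.8%, of which the cluster farther into the gene made up 5.88% of the gene's length. Both replicates covered 2112 bp, replicate 1 alone a further 994 bp, and the replicate-set list alone 1692 bp. No base of the gene was in replicate 2 alone. In none of the 3 lists did a cluster cover the remaining 17227 bp, or 78.2% of the gene. The longest stretch of the gene without a cluster was 18785 bp for replicate 1, 19043 bp for replicate 2 and 10575 bp for the replicate-set list, and in both replicates it ran from the cluster to the higher-coordinate end.

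The window was covered less than the arm on average, and close to the middle of the arm's windows. Coverage was 11.3% in replicate 1, 6.03% in replicate 2 and 17.4% in the replicate-set list, against 20.1%, 13.4% and 27.7% of the rest of 2L. The ratio of the window to the rest of 2L was 0.564 in replicate 1 and 0.449 in replicate 2, a mean of 0.507 ± 0.0818, and 0.627 in the replicate-set list. The ratio was under 1 in both replicates, and in the replicate-set list, which is not independent of them. With 2 replicates no exact test over samples can pass the usual threshold, so none was made. Over the gene alone the ratios were 0.703, 0.713 and 0.787 in the same order of lists, with a mean over the replicates of 0.708 ± 0.00739.

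Coverage along the arm was skewed, so the average is a high standard. Set against 655 other consecutive windows of the same length on 2L, the Mhc window exceeded 275 in replicate 1, 277 in replicate 2 and 259 in the replicate-set list, or 42.0%, 42.3% and 39.5% of them. The median coverage of those windows was 14.8%, 8.83% and 23.6% in the same order. No cluster at all was found in 135 of these windows in replicate 1 and in 178 in replicate 2. Among 1042 windows of the length of the gene, the gene exceeded 51.5% in replicate 1, 55.3% in replicate 2 and 48.7% in the replicate-set list. By the share of bases in clusters, Mhc was near the middle of 2L in each list.

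**Figure D4:**
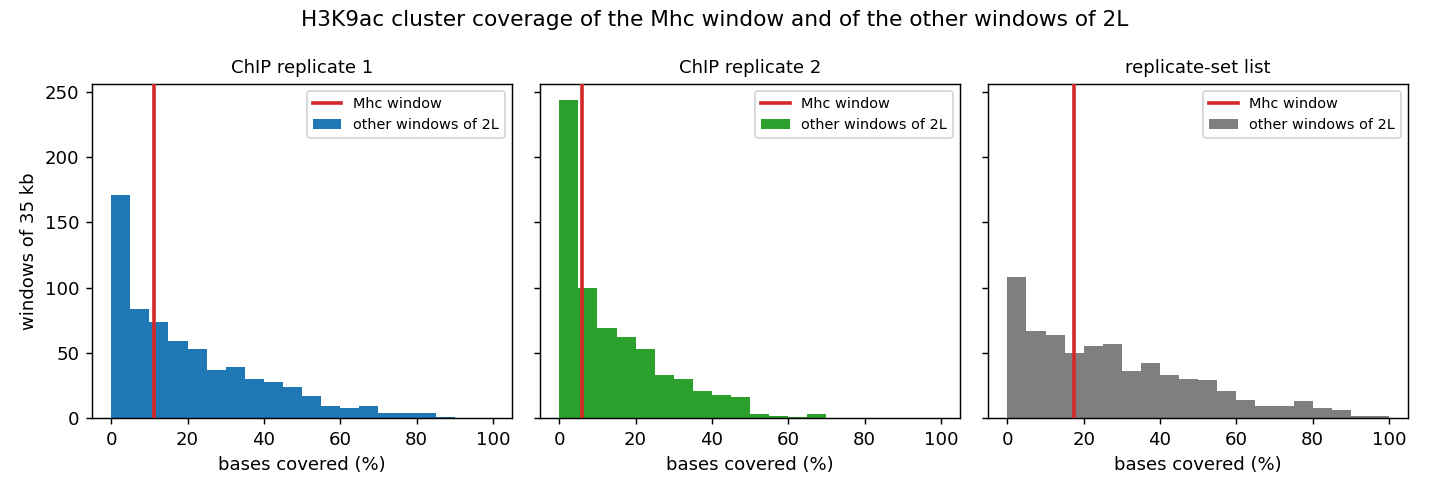
Percent of bases covered by H3K9ac clusters (x axis) in 655 consecutive windows of 35 kb along 2L (bars, number of windows per 5 percentage points) and in the Mhc window (red line), for each list. The Mhc window, at 11.3%, 6.03% and 17.4%, lies to the left of the median window in each list and right of the many windows with little or no coverage.

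The Mhc cluster stood apart from its neighbours. In replicate 2 the nearest cluster before it was 22639 bp away and the nearest after it 56854 bp away. The nearer of these gaps exceeded that of 93.8% of the clusters of the rest of 2L, for which the median was 2499 bp. In replicate 1 the gaps were 6014 bp, to the cluster before the gene, and 29583 bp. The nearer gap exceeded that of 80.7% of the clusters, with a median of 1974 bp. In the replicate-set list the gaps were 5453 bp before and 10575 bp after, the second of these ending at the other cluster inside the gene, and the nearer exceeded 85.5%, with a median of 1179 bp. The gap of 29583 bp in replicate 1 reached beyond the end of the gene and of the window, as did that of 56854 bp in replicate 2. By the sum of the gaps on both sides, the cluster exceeded 81.8% of the clusters in replicate 1 and 89.2% in replicate 2. In the replicate-set list it exceeded 73.6%, so there it stood apart less by this measure.

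Coverage of the Mhc window was 8.68% ± 3.74 over the replicates, against 35.2% ± 8.36 in the 35 kb before it and 8.21% ± 2.87 in the 35 kb after it. The stretch before the window was covered to 41.1% in replicate 1 and 29.3% in replicate 2, well above both values of the window, and to 41.6% by the replicate-set list. The window was covered to 11.3% in replicate 1, 6.03% in replicate 2 and 17.4% by the replicate-set list, against 10.2%, 6.18% and 18.5% of the stretch after it, in the same order. Before the window, the cluster next to the locus in replicate 2, at 16742468 to 16744968, scored 1.33, and its replicate 1 counterpart, at 16741965 to 16745269, scored 1.46. Both ranked above the Mhc cluster of their list, exceeding 88.1% and 92.6% of the rest of 2L. After the window, the nearest cluster found in both replicates, at 16826610 to 16828822 in replicate 1, scored 0.858 there and 0.737 in replicate 2. The 1 Mb centred on the gene was covered to 12.7% ± 4.09 over the replicates. Its ratio to the remainder of 2L, taken within each list, was 0.771 in replicate 1 and 0.723 in replicate 2, a mean of 0.747 ± 0.0340. It was 0.830 in the replicate-set list, and thus under 1 in both replicates and in that list. These adjoining stretches were picked once the data had been seen.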

How the data were processed

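The deposited files are lists of H3K9ac clusters, with 1 per ChIP replicate and 1 for the replicate set. The genome is FlyBase release 5, per the file headers, and positions count from 1. Column 6 holds a score for each cluster, deposited by the authors. Neither the caller, its threshold and the aligner nor the scale of the score and how the replicates were combined is given in the sources used here. Covered bases were counted after merging clusters, and an overlap of 1 bp counted as shared. Score and width percentiles are shares of clusters of the rest of 2L with a lower value in the same list. The rest of 2L leaves out the window in question. Pairs are clusters that overlap just each other. Every cluster of the window was named, with the 3 replicate-set clusters nearest to that of Mhc in score and width percentile. The locus and these choices were made with earlier results of these data known. No test was run, since with 2 replicates no exact test over samples can pass the usual threshold. The code for coverage was tested on the replicate 1 clusters of 2L against a direct count of bases. That for overlaps and offsets was tested on copies of some of these clusters, shifted by known random amounts. Planned descriptions of other muscle genes were not made, since the gene table used belongs to Release 6. Python 3.11.15, numpy 2.4.6 and matplotlib 3.10.9 were used.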

Additional observations from a re-analysis of the deposited data

How the results depend on the processing

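Leaving out clusters that scored under the median of their list gave a covered share of the gene of 7.05% in place of 11.8%, a ratio of the window to the rest of 2L of 0.352 in place of 0.507, and 0% of bases shared in the window in place of 53.3%. The replicate 2 cluster scored under the median of its list, 0.814, and was left out by this setting. The replicate-set list gave 21.8% of the gene and a ratio of 0.627. The gene in place of the window gave a ratio of 0.708 and 68.0% of bases shared. Cutting the replicate 1 list by score to as many clusters as replicate 2 also gave 68.0%. Both of these settings leave out the replicate 1 cluster before the gene, which was 1457th of 1567 on 2L by score, and keep the matched pair. The cause of these shifts was not tested, apart from the clusters that a setting drops. The other 9 settings left their value unchanged or within the SD of the replicates. Among them, score ranks over all clusters gave a mean percentile of 45.6 in place of 50.0, and the replicate-set list 80.0, within the SD of 34.6. Without one replicate, the covered share of the gene was 9.59% to 14.1%, the ratio 0.449 to 0.564 and the score percentile 25.5 to 74.5, which with 2 replicates cannot leave the SD. Offsets and shared bases need both replicates. No paired analysis was possible because no result comes from a test. The ratios to the rest of 2L are taken within each replicate. The limits set by read depth, which is unknown, were not measured.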
